A study of Mus musculus with 10 samples.

Results

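The carnitine shuttle is the route by which long-chain fatty acids enter the mitochondrial matrix, and 7 mouse genes of the shuttle and of carnitine supply are described here in liver. They are Cpt1a, Cpt1b and Cpt2 (carnitine palmitoyltransferases), Slc25a20 (the carnitine-acylcarnitine translocase), Slc22a5 (the carnitine uptake transporter), and Bbox1 and Tmlhe (carnitine synthesis). They were chosen by name, as the rows of the deposited expression table whose symbol is one of these 7. All 7 had a row among the 16874 genes of the table. All 7 were also among the 11242 genes that reached 0.5 FPKM (fragments per kilobase of transcript and per unit of sequenced library) in at least 5 of the 10 libraries and were tested, although Cpt1b did so in only 6 libraries.

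The first group is 5 liver libraries from male C57BL/6 mice given 2500 mg/kg body weight of DEHP by gavage. DEHP is di(2-ethylhexyl) phthalate, a plasticizer known in rodents as a peroxisome proliferator. The second group is 5 liver libraries from male C57BL/6 mice given 0.5% CMC, the carboxymethyl cellulose vehicle, by the same route. Mice of both groups carried a knockout of Pparg restricted to the liver and weighed 20 to 30 g, with 12 mice listed per group. The length of treatment, the age of the mice, the driver of the deletion, and whether a library is 1 mouse or a pool are not given in the sources used here. No liver with intact Pparg was analysed here, so the values below describe DEHP in knockout livers only.

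Long-chain fatty acids are first joined to coenzyme A, and the acyl-CoA cannot cross the inner mitochondrial membrane. CPT1 in the outer membrane moves the acyl group to carnitine, the translocase exchanges the acylcarnitine for free carnitine across the inner membrane, and CPT2 on the matrix side rebuilds the acyl-CoA for beta-oxidation. Malonyl-CoA inhibits CPT1, which is the classic control point of hepatic fatty acid oxidation. Carnitine itself is taken up from blood by the SLC22A5 transporter or made from trimethyllysine, with TMLHE acting first and BBOX1 last. Several genes of fatty acid oxidation are known targets of PPARα, the receptor that peroxisome proliferators activate in liver, and it binds with RXR to 2 copies of AGGTCA in tandem, 1 base apart.

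The windows around the annotated starts of the 3 genes that carry an acyl group through the liver shuttle are shown. The ratios between these genes, given further on, missed their threshold, so a difference in how far they changed after DEHP is not established. Each run covers the 250 bases before the RefSeq start and the first 20 bases after it, 5′ to 3′ on the gene's strand, from RefSeq windows on GRCm38.p6. Capitals mark AGGTCA on either strand, or the tandem repeat with at most 2 mismatches in its 12 fixed bases. The Slc25a20 run is chr9:108661886-108662155 on the plus strand, the Cpt2 run is chr4:107923570-107923839 on the minus strand, and the Cpt1a run is chr19:3323051-3323320 on the plus strand.
Slc25a20: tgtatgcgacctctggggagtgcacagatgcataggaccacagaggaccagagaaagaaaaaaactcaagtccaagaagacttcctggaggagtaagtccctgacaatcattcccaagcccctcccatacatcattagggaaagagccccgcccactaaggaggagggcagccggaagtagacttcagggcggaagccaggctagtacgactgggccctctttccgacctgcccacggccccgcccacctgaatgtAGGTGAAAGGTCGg
Cpt2: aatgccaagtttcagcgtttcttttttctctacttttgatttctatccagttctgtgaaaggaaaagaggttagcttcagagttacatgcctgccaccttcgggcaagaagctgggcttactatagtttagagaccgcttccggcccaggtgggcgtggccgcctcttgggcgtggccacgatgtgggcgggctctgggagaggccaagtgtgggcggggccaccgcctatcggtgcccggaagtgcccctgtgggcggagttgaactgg
Cpt1a: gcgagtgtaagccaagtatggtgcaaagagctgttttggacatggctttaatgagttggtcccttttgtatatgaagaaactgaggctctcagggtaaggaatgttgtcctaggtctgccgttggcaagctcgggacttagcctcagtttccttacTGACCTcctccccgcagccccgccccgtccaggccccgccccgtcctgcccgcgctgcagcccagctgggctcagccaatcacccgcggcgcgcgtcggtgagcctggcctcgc
Of the 7 genes, 5 had such a window (Cpt1b and Tmlhe were not in the RefSeq set used). The search covered both strands of the full windows, which run to 50 bases after the start. The tandem repeat was found in 1 of 5, that of Slc25a20, as AGGTGAAAGGTCG at bases 7 to 19 after the start, with 2 mismatches. Across all 32851 windows, 1268 (3.86%) held such a match. AGGTCA alone was found in Cpt1a, on the minus strand at bases -94 to -89, and in 16.3% of all windows. The GC box GGGCGG was found in 4 of 5 windows, 3 copies each in Slc25a20, Cpt2 and Cpt1a, and in 35.7% of all windows. The window of Bbox1 held no GC box and had 39.3% G and C against a median of 52.7% over all windows. It was 1 of the 13.6% that held TATAAA, at bases -209 to -204 on the strand opposite to the gene. CCAAT was found in Cpt1a only, and in 37.4% of all windows. The windows of Bbox1 (chr2:110305676-110305975, minus strand) and Cpt1a lay inside the gene spans given below, away from their 5′ ends. Starts nearer those ends were not searched. These are matches of letters in a short window, and no binding was measured.

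After DEHP, 3 of the 7 genes were called higher and none lower: Slc25a20, Cpt2 and Bbox1. The other 4, Cpt1a, Cpt1b, Slc22a5 and Tmlhe, did not pass the test. Calls come from limma on log2(FPKM + 0.5), DEHP minus CMC, at an adjusted p below 0.05 (Benjamini-Hochberg over all 11242 tested genes). In the whole table that fit called 9.12% of the tested genes higher in DEHP libraries and 2.40% lower, 11.5% in all. The median log2 fold change was 0.26 over the 7 genes and 0.06 over all tested genes. The summed level of the 7 genes ran from 314 to 377 FPKM in DEHP libraries and from 249 to 276 FPKM in CMC libraries, with no overlap.

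**Figure D1:**
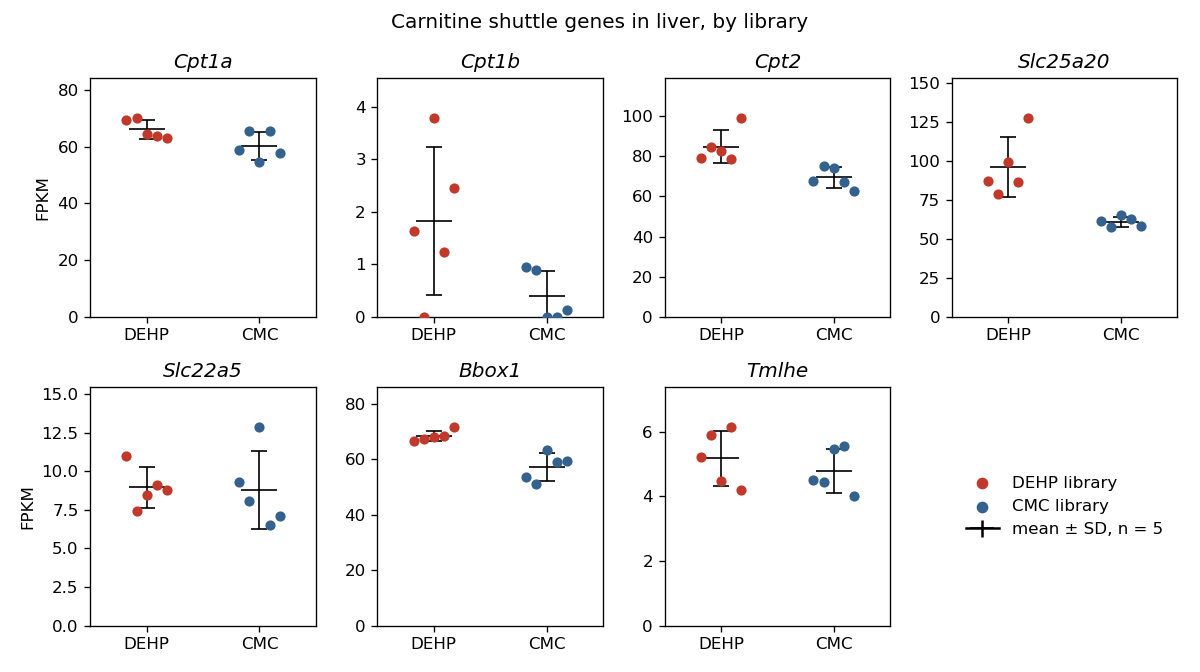
FPKM (vertical axes, each starting at 0) of the 7 carnitine shuttle genes in 5 DEHP libraries (red) and 5 CMC libraries (blue), with the mean ± SD of each group. For Slc25a20, Cpt2 and Bbox1 the lowest DEHP library lies above the highest CMC library, and for the other 4 genes the groups overlap.

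Cpt1a encodes the liver form of CPT1 and lies at chr19:3322326-3385735 (gene ID 12894, coordinates of genes here being RefSeq on GRCm38.p6). Its level was 69.6, 70.2, 64.4, 64.0 and 63.2 FPKM in DEHP libraries 1 to 5, against 58.8, 65.5, 54.5, 65.5 and 57.8 FPKM in CMC libraries 1 to 5. The groups overlapped, and only DEHP libraries 1 and 2 lay above every CMC library. It averaged 66.3 ± 3.35 FPKM in DEHP libraries and 60.4 ± 4.91 FPKM in CMC libraries (SD, n = 5 each). Its log2 fold change was 0.14 (SE 0.08, 95% interval -0.03 to 0.30), with a limma adjusted p of 0.287. The step known as the control point was thus not called. The interval holds for this fit and its scaling only. The log2 fold change of Cpt1a was 0.06 under median-of-ratios scaling and -0.0056 under quantile normalization.

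Cpt1b encodes the muscle form of CPT1, at chr15:89416405-89425862 (gene ID 12895). It was listed at 1.63, 0, 3.79, 1.23 and 2.46 FPKM in DEHP libraries 1 to 5, against 0.95, 0.89, 0, 0 and 0.13 FPKM in CMC libraries 1 to 5. In 4 of 5 DEHP libraries it was above every CMC library, and DEHP library 2 was at 0 with CMC libraries 3 and 4. In limma the log2 fold change was 1.24 (SE 0.57, 95% interval -0.02 to 2.50), with a limma adjusted p of 0.205. Without DEHP library 2 it was 1.72 with a limma adjusted p of 0.0149, so 1 library decides this call. No other of the 10 single-library omissions passed, with a limma adjusted p of up to 0.347. Cpt1b made up 2.29%, 0%, 5.55%, 1.89% and 3.74% of the summed Cpt1a, Cpt1b and Cpt1c FPKM in DEHP libraries 1 to 5, and 1.59%, 1.34%, 0%, 0% and 0.224% in CMC libraries 1 to 5.

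The low Cpt1b values have a close neighbour beside them. Chkb, which encodes choline kinase beta, lies 496 bases from Cpt1b in the GENCODE annotation, and a further annotated gene, Gm44502, covers Cpt1b on the same strand and reaches into Chkb. Chkb rose, with 31.1, 28.2, 32.6, 30.7 and 26.8 FPKM in DEHP libraries 1 to 5, against 18.6, 22.9, 22.8, 20.7 and 23.6 FPKM in CMC libraries 1 to 5 (log2 fold change 0.45, limma adjusted p 0.00456). Whether fragments from Chkb or Gm44502 were counted at Cpt1b was not tested. Of 10 skeletal and heart muscle markers 7 were in the table, with Tnni2, Tnnt3, Myh1 and Myh7 at 0 in every library, and their summed level was at most 0.64 FPKM in DEHP libraries and 0.74 FPKM in CMC libraries. Of 6 fat cell markers 5 were in the table, with Ucp1 at 0 in every library and Adipoq and Plin1 at 0 in all but DEHP library 4 and CMC library 5. Their summed level ran from 0.17 to 2.41 FPKM in DEHP libraries and from 0 to 1.15 FPKM in CMC libraries. The part of fat cells in the Cpt1b values was not tested.

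Slc25a20 encodes the translocase of the inner membrane and lies at chr9:108662136-108684642 (gene ID 57279). It was the shuttle gene with the largest called change. Its level was 87.2, 78.4, 99.4, 86.3 and 127 FPKM in DEHP libraries 1 to 5, against 61.0, 57.5, 64.9, 62.8 and 58.1 FPKM in CMC libraries 1 to 5. Every DEHP library lay above every CMC library, DEHP library 5 was the highest, and the CMC libraries were tightly grouped. All 5 DEHP libraries lay above all 5 CMC libraries for 8.56% of the tested genes, and below all 5 for 2.14%. Slc25a20 averaged 95.7 ± 19.2 FPKM in DEHP libraries and 60.9 ± 3.11 FPKM in CMC libraries (SD, n = 5 each). This gave a log2 fold change of 0.63 (SE 0.11, 95% interval 0.39 to 0.87; limma adjusted p 0.00219), at percentile 96.2 of the fold changes of all tested genes. It stayed past the threshold without each library in turn, with log2 fold changes of 0.52 to 0.70.

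Cpt2 encodes the matrix-side transferase and lies at chr4:107903982-107923589 (gene ID 12896). Its level was 79.3, 84.7, 82.8, 78.8 and 99.2 FPKM in DEHP libraries 1 to 5, against 67.9, 75.5, 74.4, 67.1 and 62.8 FPKM in CMC libraries 1 to 5. The groups did not overlap, DEHP library 5 was again the highest, and the lowest DEHP library lay close above the highest CMC library. Cpt2 averaged 85.0 ± 8.34 FPKM in DEHP libraries and 69.5 ± 5.32 FPKM in CMC libraries (SD, n = 5 each). The log2 fold change was 0.29 (SE 0.08, 95% interval 0.11 to 0.46; limma adjusted p 0.0399). This call is close to the threshold: it was lost when any one of CMC libraries 1, 4 and 5 or DEHP libraries 1, 2, 3 and 5 was left out, with log2 fold changes of 0.23 to 0.32 and adjusted p of 0.0300 to 0.0954 over all 10 omissions.

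Slc22a5 encodes OCTN2, the sodium-dependent carnitine transporter of the plasma membrane, and lies at chr11:53864542-53891796 (gene ID 20520). Its level was 11.0, 7.40, 8.47, 9.09 and 8.79 FPKM in DEHP libraries 1 to 5, against 9.29, 8.10, 12.9, 6.53 and 7.13 FPKM in CMC libraries 1 to 5. The DEHP values all lay inside the range of the CMC values. It averaged 8.95 ± 1.30 FPKM in DEHP libraries and 8.78 ± 2.51 FPKM in CMC libraries (SD, n = 5 each). The log2 fold change was 0.05 (SE 0.16, 95% interval -0.29 to 0.40; limma adjusted p 0.889), and its sign turned under 2 scalings and 3 single-library omissions, the lowest value being -0.038.

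In carnitine synthesis the gene of the last step was called and that of the first was not, and the ratio of the pair, given further on, missed its threshold. Bbox1 encodes gamma-butyrobetaine hydroxylase, the enzyme of the last step, at chr2:110264056-110314813 (gene ID 170442). Its level was 66.5, 67.1, 68.1, 68.4 and 71.6 FPKM in DEHP libraries 1 to 5, against 53.7, 50.9, 63.4, 58.9 and 59.3 FPKM in CMC libraries 1 to 5. The groups did not overlap, and the DEHP libraries were closer to each other than the CMC libraries. Bbox1 averaged 68.3 ± 1.95 FPKM in DEHP libraries and 57.2 ± 4.94 FPKM in CMC libraries (SD, n = 5 each). The log2 fold change was 0.26 (SE 0.07, 95% interval 0.10 to 0.42; limma adjusted p 0.0376). The call held without CMC library 3 (adjusted p 0.0288) and was lost without any other single library, with log2 fold changes of 0.22 to 0.30 and adjusted p of at most 0.0872.

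Tmlhe encodes trimethyllysine hydroxylase, the enzyme of the first step (gene ID 192289), and lies on a scaffold of chromosome X that is not placed on the assembled chromosome. Its level was 5.21, 5.89, 4.47, 6.15 and 4.21 FPKM in DEHP libraries 1 to 5, against 4.51, 4.44, 5.48, 5.56 and 4.01 FPKM in CMC libraries 1 to 5. The groups overlapped over most of their ranges. The log2 fold change was 0.10 (SE 0.13, 95% interval -0.19 to 0.38; limma adjusted p 0.711).

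The exact two-sided permutation test over all regroupings of the 10 libraries gave p = 0.00794 for Slc25a20, for Cpt2 and for Bbox1, which is the smallest p this design allows. The same exact test gave p = 0.0794 for Cpt1a and 0.0873 for Cpt1b. Adjusted over all tested genes, the smallest permutation p became 0.0742, so that test called 0 genes in the whole table, while 2681 genes had an unadjusted permutation p below 0.05. The Cpt2 and Bbox1 calls also ended under median-of-ratios scaling (log2 fold changes 0.21 and 0.19) and under quantile normalization (0.15 and 0.13), whereas Slc25a20 stayed past the threshold under both.

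**Figure D2:**
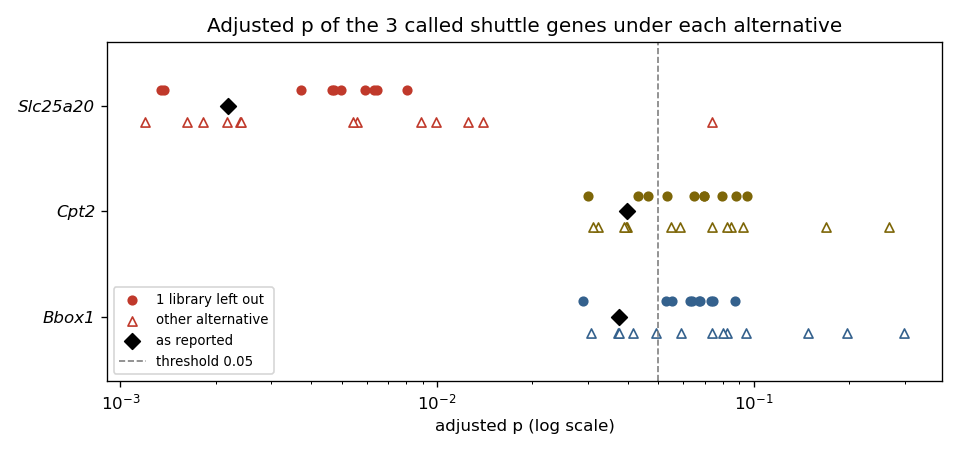
Adjusted p on a log axis for Slc25a20, Cpt2 and Bbox1 as reported (black diamonds), with 1 library left out (filled circles) and under the other alternatives (open triangles), against the threshold of 0.05 (dashed line). For Slc25a20 1 alternative, the permutation test per gene at 0.0742, lies beyond the threshold, while for Cpt2 and Bbox1 the points lie on both sides.

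FPKM is per transcript length, so levels of different genes can be set side by side. In DEHP libraries the order of mean FPKM was Slc25a20, Cpt2, Bbox1, Cpt1a, Slc22a5, Tmlhe and Cpt1b. In CMC libraries it was Cpt2, Slc25a20, Cpt1a, Bbox1, Slc22a5, Tmlhe and Cpt1b. The upper 4 genes were all above 50 FPKM in every library, and neighbours among them overlapped, except that every DEHP value of Cpt2 lay above every DEHP value of Bbox1. Slc22a5, Tmlhe and Cpt1b did not overlap with their neighbours in either group. Slc25a20 was above Cpt2 in 4 of 5 DEHP libraries, whereas Cpt2 was above Slc25a20 in 5 of 5 CMC libraries.

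Ratios within a library ask whether neighbouring steps of the route changed by different amounts, and a factor applied to a whole library cancels in them apart from the pseudocount. The log2 ratio of Slc25a20 to Cpt2 was 0.14, -0.11, 0.26, 0.13 and 0.36 in DEHP libraries 1 to 5, against -0.15, -0.39, -0.20, -0.10 and -0.11 in CMC libraries 1 to 5. DEHP library 2 lay within the CMC range and the other 4 DEHP libraries above it. The difference was 0.34 (exact permutation p 0.0238, adjusted over 5 such ratios 0.0595), so it missed the threshold. Without DEHP library 2 it was 0.41 with an exact permutation adjusted p of 0.0397. This was the only 1 of 10 single-library omissions that passed, with an exact permutation adjusted p of up to 0.119 in the others. The ratio of Slc22a5 to Slc25a20 differed by -0.58 (exact permutation p 0.0238, adjusted 0.0595).

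The other 3 ratios missed the threshold by more. Cpt2 over Cpt1a, the inner against the outer transferase, differed by 0.15 (exact permutation p 0.206, adjusted 0.254). Tmlhe over Bbox1, the first against the last step of synthesis, differed by -0.16 (exact permutation p and adjusted p 0.254). Cpt1b over Cpt1a differed by 1.11 (exact permutation p 0.135, adjusted 0.225), and by 1.60 with an exact permutation adjusted p of 0.0397 without DEHP library 2, which had no Cpt1b. That omission was the only 1 of 10 to pass for this ratio, with an exact permutation adjusted p of up to 0.423 in the others. With all 10 libraries in, none of the 5 ratios passed the adjusted threshold, which does not show that the steps changed alike.

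Once inside the matrix, acyl-CoA enters beta-oxidation, and 14 of the 15 listed genes of that pathway were called higher and none lower, with a median log2 fold change of 0.70. Eci1, an enoyl-CoA isomerase, averaged 346 ± 57.5 FPKM in DEHP libraries and 127 ± 9.21 FPKM in CMC libraries (log2 fold change 1.42, limma adjusted p 1.73e-06, n = 5 each). Decr1, a dienoyl-CoA reductase, averaged 135 ± 8.11 FPKM in DEHP libraries and 63.7 ± 2.38 FPKM in CMC libraries (log2 fold change 1.08, limma adjusted p 3.33e-07). Acadm, the medium-chain dehydrogenase, averaged 294 ± 27.4 FPKM in DEHP libraries and 142 ± 15.2 FPKM in CMC libraries (log2 fold change 1.05). The gene without a call was Etfa, a subunit of the electron-transfer flavoprotein, with 293 ± 19.6 FPKM in DEHP libraries and 278 ± 12.9 FPKM in CMC libraries.

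The shuttle genes were then set against the mean log2 level of those 15 genes within each library, a comparison chosen after the values had been seen. Relative to the beta-oxidation genes, 5 of the 7 were lower in DEHP libraries than in CMC libraries. The ratio sets each gene against a set already seen to rise. The set's median log2 fold change, 0.70, is that of Acadvl, at percentile 96.9 of all tested genes. Most tested genes rose less than that, so a lower ratio is not particular to the shuttle genes, and the p-values below do not show that it is. The share of all genes with a lower ratio was not computed. The log2 ratio of Cpt1a was -1.82, -1.79, -1.97, -1.81 and -2.02 in DEHP libraries 1 to 5, against -1.32, -1.25, -1.48, -1.21 and -1.37 in CMC libraries 1 to 5. The groups did not overlap, and the difference was -0.56 (exact permutation p 0.00794, adjusted over 7 ratios 0.0139). The differences were -0.41 for Cpt2, -0.43 for Bbox1 and -0.59 for Tmlhe, each with an exact permutation adjusted p of 0.0139 and with no overlap. Without CMC library 2 and DEHP library 5 these 4 differences had an exact permutation p of 0.0286, the smallest that 4 libraries against 4 allow. Adjusted over the 7 ratios this became 0.05, which depends on the other ratios too, and so they did not pass.

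Slc22a5 differed by -0.64 in the same comparison (exact permutation adjusted p 0.0222, and 0.0667 without CMC library 2 and DEHP library 5). Slc25a20 stood at -1.50, -1.63, -1.35, -1.38 and -1.01 in DEHP libraries 1 to 5, against -1.27, -1.43, -1.23, -1.28 and -1.36 in CMC libraries 1 to 5. The difference for Slc25a20 was -0.06 (exact permutation adjusted p 0.595), and it lay between -0.15 and 0.00 when single libraries were left out. Cpt1b differed by 0.55 (exact permutation adjusted p 0.444), with DEHP library 2 far below the other 4 DEHP libraries. The difference between Slc25a20 and the other members in this ratio was tested only for the pairs given above.

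**Figure D3:**
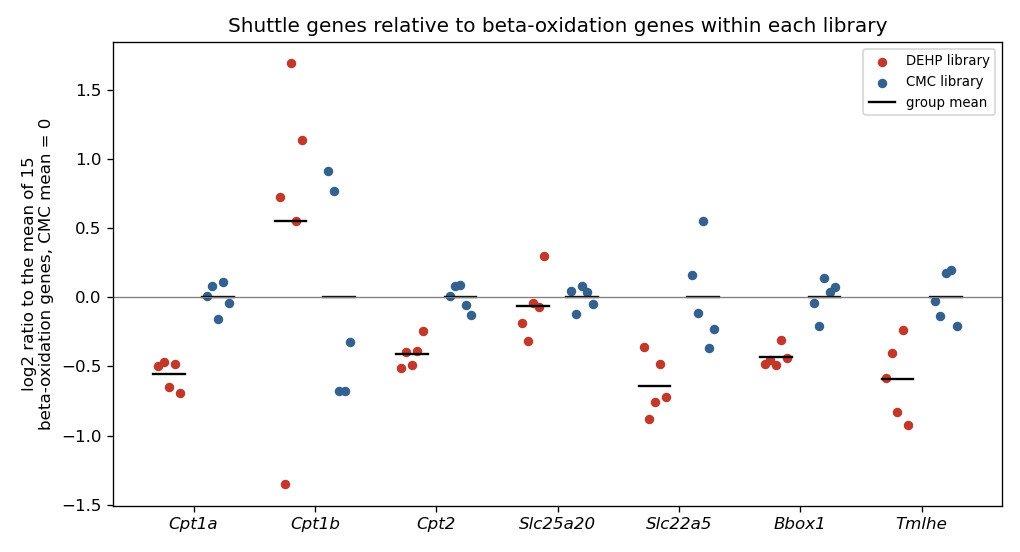
Log2 ratio of each shuttle gene to the mean of 15 beta-oxidation genes in each DEHP library (red) and CMC library (blue), shifted so that the CMC mean of each gene is 0, with black lines at group means. The DEHP means lie between -0.64 and -0.41 for Cpt1a, Cpt2, Slc22a5, Bbox1 and Tmlhe, at -0.06 for Slc25a20 and at 0.55 for Cpt1b, where the spread is wide. The 15 genes had been seen to rise, so a lower ratio is not particular to the shuttle genes.

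Among 13 other genes of carnitine metabolism, 12 were in the table and 9 were tested. Of these 9, with a median log2 fold change of 0.22, 2 were called higher and none lower, against 9.12% and 2.40% of all tested genes. With a filter of 2 FPKM, 6 were tested and 4 called higher. Aldh9a1, the aldehyde dehydrogenase that makes gamma-butyrobetaine between the steps of Tmlhe and Bbox1, averaged 144 ± 15.3 FPKM in DEHP libraries and 93.5 ± 8.60 FPKM in CMC libraries (log2 fold change 0.61, limma adjusted p 0.000595, n = 5 each). Shmt2, the mitochondrial serine hydroxymethyltransferase, averaged 136 ± 14.6 FPKM in DEHP libraries and 102 ± 5.90 FPKM in CMC libraries (log2 fold change 0.41, limma adjusted p 0.00485). Serine hydroxymethyltransferase has been proposed for a cleavage step of carnitine synthesis. Its cytosolic form Shmt1 averaged 73.6 ± 3.07 FPKM in DEHP libraries and 63.1 ± 3.59 FPKM in CMC libraries, without overlap, and just missed the threshold (limma adjusted p 0.0520).

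Crat, the carnitine acetyltransferase, averaged 16.6 ± 3.98 FPKM in DEHP libraries and 9.52 ± 3.76 FPKM in CMC libraries (log2 fold change 0.82), also just outside the threshold (limma adjusted p 0.0520). Crot, the peroxisomal carnitine octanoyltransferase, averaged 245 ± 22.1 FPKM in DEHP libraries and 237 ± 23.3 FPKM in CMC libraries (log2 fold change 0.05, limma adjusted p 0.787). Crot was thus at a higher level than any of the 7 shuttle genes in both groups. Cpt1c, the brain form of CPT1, was at most 0.20 FPKM in every library and was not tested.

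Ahead of CPT1, 7 of 8 listed genes of fatty acid activation were tested, of which 4 were called higher and none lower (median log2 fold change 0.40). Acsl1, the main long-chain acyl-CoA synthetase of liver, averaged 222 ± 11.6 FPKM in DEHP libraries and 172 ± 19.6 FPKM in CMC libraries (log2 fold change 0.38, limma adjusted p 0.00987). Slc27a2, a very-long-chain acyl-CoA synthetase, averaged 679 ± 29.9 FPKM in DEHP libraries and 482 ± 41.6 FPKM in CMC libraries (log2 fold change 0.50, limma adjusted p 0.000615). Acsl5 and Slc27a4 rose by log2 fold changes of 0.55 and 0.61. The count of 4 became 3 under median-of-ratios scaling, under quantile normalization and with the clock covariate.

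Of 9 genes of malonyl-CoA control, which sets CPT1 activity, 8 were tested. Against 9.12% of all tested genes called higher and 2.40% lower, 2 of these 8 were called higher and none lower. Both encode acetyl-CoA carboxylases, the enzymes that make malonyl-CoA. Acacb, the form attached to mitochondria, averaged 12.4 ± 3.61 FPKM in DEHP libraries and 6.63 ± 1.68 FPKM in CMC libraries (log2 fold change 0.85, limma adjusted p 0.00810). Acaca, the cytosolic form, averaged 9.72 ± 2.08 FPKM in DEHP libraries and 6.49 ± 0.895 FPKM in CMC libraries (log2 fold change 0.53, limma adjusted p 0.0243). Mlycd, the decarboxylase that removes malonyl-CoA, averaged 73.2 ± 4.37 FPKM in DEHP libraries and 64.9 ± 5.64 FPKM in CMC libraries (log2 fold change 0.17, limma adjusted p 0.179). The count fell to 1 without DEHP library 3, CMC library 3 or CMC library 4, under quantile normalization, with the clock covariate, and without CMC library 2 and DEHP library 5 together. The 5 tested subunits of AMPK were not called, with log2 fold changes of 0.02 to 0.23.

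**Figure D4:**
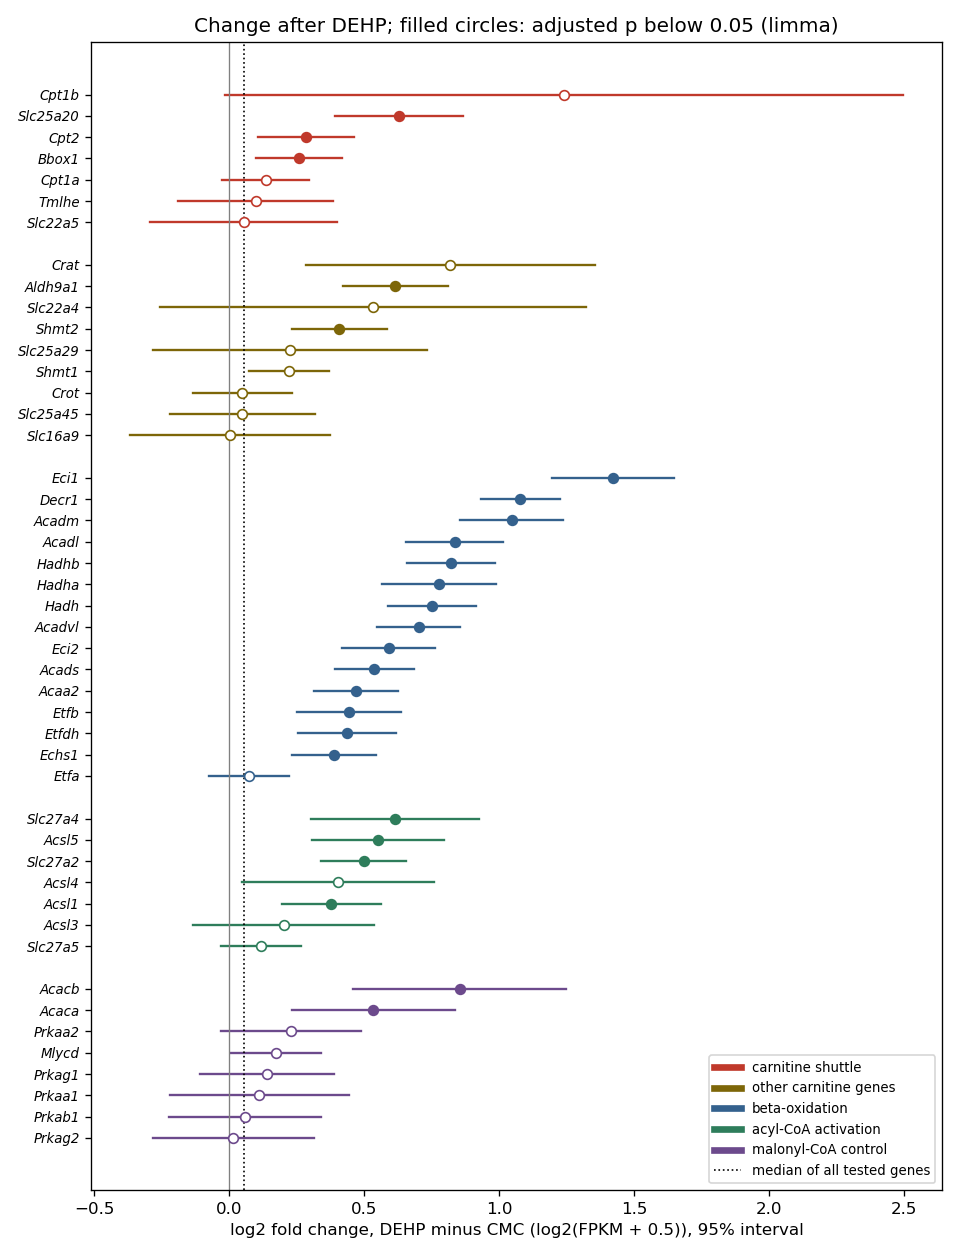
Log2 fold change, DEHP minus CMC, on the log2(FPKM + 0.5) scale, with 95% intervals, for tested genes of the shuttle, other carnitine genes, beta-oxidation, acyl-CoA activation and malonyl-CoA control. Filled circles passed an adjusted p of 0.05 in limma, and the dotted line is the median of all tested genes, 0.06. In the shuttle group Slc25a20, Cpt2 and Bbox1 are filled, against 14 of 15 in the beta-oxidation group.

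Of 7 receptors and coactivators only Pparg was called, where 11.5% of all tested genes were. Pparg was higher, with 5.50 to 9.40 FPKM in DEHP libraries and 2.40 to 5.90 FPKM in CMC libraries (log2 fold change 0.89, limma adjusted p 0.0118). With the clock covariate 0 of the 7 were called higher. Pparg is the gene labelled as deleted in both groups, and without a liver of intact Pparg its level checks nothing about the deletion. Ppara averaged 33.0 ± 2.12 FPKM in DEHP libraries and 28.6 ± 1.72 FPKM in CMC libraries (limma adjusted p 0.109). Lpin1, a coactivator of PPARα, averaged 47.7 ± 14.9 FPKM in DEHP libraries and 76.0 ± 19.8 FPKM in CMC libraries (limma adjusted p 0.0731). Without DEHP library 3 or CMC library 3, and under median-of-ratios scaling or quantile normalization, 1 of the 7 genes was called lower.

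Within groups the 7 genes did not move as 1 block. Over the 21 pairs, the correlation of deviations from the group means in the 10 libraries ran from -0.67 to 0.65 with a median of 0.14. The highest was Slc25a20 with Cpt2, both highest in DEHP library 5, and the lowest was Cpt1b with Tmlhe. By the same measure, the genes most like Slc25a20 among all tested genes were Psmc4 (r 0.96), Acot8 (r 0.96) and Emc9 (r 0.96). Those most like Bbox1 were Snx12 (r 0.92), Fbxo21 (r 0.92) and Cyp4a12a (r 0.91), and Cpt2 was closest to Sap25 (r 0.96). Cpt1a was closest to Wdr45b (r 0.92), Cpt1b to Ctu2 (r 0.93), Slc22a5 to Zbtb45 (r 0.89) and Tmlhe to Pcyox1l (r 0.97). These are descriptions over 10 libraries that share their groups' processing, and the nearest among 11242 genes is close by selection.

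Summed FPKM averaged 714452 ± 24455 in DEHP libraries and 714302 ± 10866 in CMC libraries, and the number of reads per library is unknown because the table holds no counts. Median-of-ratios size factors of the FPKM values averaged 1.03 ± 0.0418 in DEHP libraries and 0.984 ± 0.0294 in CMC libraries (exact permutation p 0.0714), and dividing by them ends the Cpt2 and Bbox1 calls. Of 6 hepatocyte markers, all present, 1 was called higher (Cyp2e1) and 3 lower (Alb, Ttr and Apoa1), while Hnf4a and Tat were not called. Their summed level was 40682 to 48124 FPKM in DEHP libraries and 54057 to 69187 FPKM in CMC libraries. Alb was the largest part of that sum, with means of 21275.5 FPKM in DEHP libraries and 33190.3 FPKM in CMC libraries. Summed levels of other liver cell markers overlapped: 88.9 to 108 FPKM in DEHP libraries and 72.2 to 102 FPKM in CMC libraries for Kupffer cells, and 58.7 to 84.2 FPKM in DEHP libraries and 63.6 to 81.9 FPKM in CMC libraries for endothelial cells. Of 3 erythroid markers Alas2 was called lower, with 46.1 ± 6.07 FPKM in DEHP libraries and 76.6 ± 5.37 FPKM in CMC libraries (log2 fold change -0.73, limma adjusted p 0.000208), and the summed levels overlapped at 749 to 1189 FPKM in DEHP libraries and 872 to 1666 FPKM in CMC libraries. Of 2 tested pancreatic acinar markers Cela1 was called lower, with 33.1 ± 5.64 FPKM in DEHP libraries and 65.0 ± 20.8 FPKM in CMC libraries (log2 fold change -0.90, limma adjusted p 0.0485). For Cela1 CMC library 2, at 29.9 FPKM, lay inside the range of the DEHP libraries. The other tested acinar marker, Cela2a, was not called, with 1.90 ± 1.19 FPKM in DEHP libraries and 1.34 ± 0.557 FPKM in CMC libraries (log2 fold change 0.26, limma adjusted p 0.714). Ctrb1 was too low to be tested, and Cpa1 and Pnlip were not in the table. The first component of 16 tested circadian clock genes averaged 1.47 ± 1.93 in DEHP libraries and -1.47 ± 3.11 in CMC libraries (exact permutation p 0.103). None of the 16 was called, although their log2 fold changes ran from -0.53 to 2.37. With the component as a covariate Slc25a20 stayed past the threshold, and Cpt2 and Bbox1 did not. The log2 fold changes of Slc22a5 and Cpt1b became 0.27 and 1.78 (limma adjusted p 0.375 and 0.123). In bulk liver, a change in the number of cells of a type and a change in RNA per cell cannot be told apart, and the part of these marker levels in the results was not tested.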

How the data were processed

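Livers were frozen, and RNA libraries were made with an Illumina TruSeq kit from total RNA, per the labels' protocols. The authors deposited 1 table of FPKM values per gene with a column for each of the 10 libraries. Cuffdiff and the build mm10 (GRCm38) are named per the submitters' processing notes, while no aligner or annotation release is named. FPKM is normalized per transcript length and library and is not a count, so the depth is unknown and no counting interval can be given. A gene's row pools its listed transcripts, and those of Cpt1a, Cpt2, Slc22a5 and Bbox1 include transcripts assembled by the authors. Of 20 genes used by every cell, 0 were at 0 in any library.

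A gene was kept if 5 or more libraries reached 0.5 FPKM. Log2(FPKM + 0.5), a scale that understates changes of low genes, was fitted in limma 3.58.1 under R 4.3.3 with a mean-variance trend and robust moderation, and p-values were adjusted by Benjamini-Hochberg over all tested genes. Ratios within a library used an exact two-sided permutation test over all regroupings of the libraries, adjusted over their family. Libraries are labelled as separate samples, but no mouse is named, so the p-values reflect only how these libraries vary, which may be technical. Promoter windows and gene coordinates are RefSeq (GRCm38.p6), and overlaps of genes were read from GENCODE.

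The genes, the lists and the tests were chosen with earlier results of these data known. All 7 genes are given in full, and from each list at most 6 genes that were called, by smallest p, or that a shuttle gene is compared with. The uncalled Shmt1, Crat, Etfa, Mlycd, Ppara and Lpin1, and the markers Alb, Alas2, Cela1 and Cela2a, were chosen after their values were seen. Alternatives were other scalings, pseudocounts and filters, limma without trend or with array weights, a replicate block, a clock covariate, a permutation test per gene, and libraries left out.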

Additional observations from a re-analysis of the deposited data

Results flagged for a closer look

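Among the 7 shuttle genes and the 12 ratios, none had a library standing apart from the rest of its group by Dixon's criterion. Over these and all tested genes of the related lists, 10 of 132 groups of 5 libraries did, where chance gives about 1 in 20. In DEHP library 5, Etfb was 864 FPKM, Acaa2 was 1124 FPKM and Slc27a5 was 505 FPKM, each far above the other DEHP libraries. Slc22a4 was 3.40 FPKM in DEHP library 4, Acacb was 18.8 FPKM in DEHP library 3 and Rxra was 85.5 FPKM in DEHP library 2, also far above the other DEHP libraries. Hadh was 198 FPKM in DEHP library 4, far below the other DEHP libraries. In CMC library 2, Acadl was 124 FPKM, far above, and Eci1 was 111 FPKM, far below, the other CMC libraries. Crot was 277 FPKM in CMC library 3, far above the other CMC libraries.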

How the results depend on the processing

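Slc25a20 kept its direction and its call in 12 of 13 alternatives and in all 10 omissions of 1 library (0.52 to 0.70), and lost the call in the permutation test per gene (0.63, adjusted p 0.0742). Cpt2 and Bbox1 kept their direction throughout and their calls in 5 of 13 alternatives each. They lost them under median-of-ratios scaling (0.21 and 0.19, adjusted p 0.170 and 0.197), quantile normalization (0.15 and 0.13, adjusted p 0.267 and 0.299), rescaling without the 10 most abundant genes (0.26 and 0.24, adjusted p 0.0549 and 0.0589), limma without trend or robust variance (0.29 and 0.26, adjusted p 0.0850 and 0.0826), the clock covariate (0.31 and 0.24, adjusted p 0.0826 and 0.149) and the permutation test (0.29 and 0.26, adjusted p 0.0742). Cpt2 also lost it with no filter (0.29, adjusted p 0.0586), and Bbox1 without CMC library 2 and DEHP library 5 (0.20, adjusted p 0.0947). The cause was not tested. Without single libraries the log2 fold changes were 0.23 to 0.32 for Cpt2, 0.22 to 0.30 for Bbox1, 0.94 to 1.72 for Cpt1b, 0.10 to 0.17 for Cpt1a, -0.038 to 0.19 for Slc22a5 and 0.04 to 0.16 for Tmlhe. Signs turned for Slc22a5 under median-of-ratios scaling (-0.016) and quantile normalization (-0.021), and for Cpt1a under quantile normalization (-0.0056). Cpt1b had too few libraries above a filter of 2 FPKM to be tested there.

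No sign that the replicate numbers pair the libraries was seen. Same-numbered libraries correlated at -0.07 to 0.05 in their deviations, none of 5 pairs was over 0.1, and 0 correlated best with its own number. A pairing that leaves no shared deviation would not show here. With the replicate number as a block, Cpt2 (0.29, adjusted p 0.0929) and Bbox1 (0.26, adjusted p 0.0800) were not called, and 816 genes were called higher and 229 lower. For ratios the block leaves a smallest p of 0.0625, so none can pass.

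Over all tested genes, 1025 were higher and 270 lower (79.2% of calls higher), against 647 and 438 (59.6%) under median-of-ratios scaling, 611 and 546 (52.8%) under quantile normalization, 648 and 171 with the clock covariate, and 0 and 0 in the permutation test. Without single libraries the counts were 747 to 1011 higher and 202 to 263 lower. Without single libraries the differences in log2 ratio between shuttle genes ran from 0.29 to 0.41 for Slc25a20 over Cpt2, from 0.80 to 1.60 for Cpt1b over Cpt1a, from 0.08 to 0.21 for Cpt2 over Cpt1a, from -0.68 to -0.46 for Slc22a5 over Slc25a20 and from -0.23 to -0.08 for Tmlhe over Bbox1. Of the ratios to the beta-oxidation genes, all 5 that had passed missed the threshold without CMC library 2 and DEHP library 5, Slc22a5 with an exact permutation adjusted p of 0.0667 and Cpt1a, Cpt2, Bbox1 and Tmlhe with 0.05, and Slc25a20 ran from -0.15 to 0.0021 without single libraries, the one change of sign coming without DEHP library 2. The depth is unknown, and the Cpt1b values lie near the filter.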
